A study of Homo sapiens with 4 samples.

Results

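Extracellular and lysosomal proteases and their inhibitors were examined in T47D cells, a human ER+ luminal breast cancer line, after depletion of FDXR, the mitochondrial ferredoxin reductase. The group holds every gene of the array annotation whose symbol marks it as a matrix metalloproteinase (MMP), an ADAM or ADAMTS-type protein, a tissue inhibitor of metalloproteinases (TIMP), a lettered cathepsin, a numbered kallikrein, a serpin, or a plasminogen activator or its receptor. This rule took 83 of the 14679 named genes, and for each gene the probe with the highest mean signal over the 4 arrays was used. Serpins, plasminogen activators, ADAMTS proteases and MMP2, MMP3, MMP7 and MMP9 were not analysed here, since no probe used here bears their symbols. The 83 are therefore 19 MMPs, 4 TIMPs, 23 ADAMs, 7 ADAMTS-like or ADAMTS-named transcripts, 15 cathepsins and 15 kallikreins, and 76 of them encode proteins.

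The cells carried a virus with the control hairpin (shControl) or with FDXR sh434, a hairpin against FDXR mRNA, with 2 arrays each that the labels call biological replicates. The series description speaks of a retrovirus and the methods of a lentivirus, infected cells were selected with an antibiotic, and both groups were otherwise grown in the same serum-containing medium. FDXR sh434 is 1 hairpin, so effects on other transcripts cannot be told apart from those of FDXR loss. The FDXR transcript was not analysed here, so its depletion was not checked. The source label reads T47D on 1 array and a different, serially numbered name on the other 3, while the growth protocol names T47D for all. Nothing states that the replicates came from separate infections, and p-values measure only the spread between these arrays.

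Values are log2 signals as deposited, with array medians from 4.76 to 4.78, and correlations across probes were 0.991 and 0.994 within the groups and 0.987 to 0.988 between them. Of the 10 luminal epithelial markers listed, 8 were measured, with mean log2 signals from 7.48 to 11.2, all above the median of all probes, 4.76. Their summed linear signal was 11270 on the shControl arrays and 10430 to 10470 on the FDXR sh434 arrays. They moved in both directions and 0 passed the test. Log2 fold changes were -0.75 for PGR (adjusted p = 0.0575), -0.37 for ESR1, 0.21 for FOXA1 and 0.26 for KRT18. In the limma fit with a signal-dependent spread, described below, PGR (adjusted p = 8.26e-05) and KRT18 (adjusted p = 0.0105) passed. Of the other cell type markers, basal, leukocyte and embryonic kidney genes had 3 measured each and 0 passed the test, although the leukocyte sum was 120.6 to 120.7 on the shControl arrays and 139.5 to 144.6 on the FDXR sh434 arrays. Of 3 measured fibroblast markers, DCN had a mean log2 signal of 2.20, under the median of all probes, and LUM (lumican) was 3.64-fold lower in FDXR sh434 cells (adjusted p = 0.0213). The summed linear signal of these 3 genes was 104.7 to 113.2 on the shControl arrays and 61.0 to 64.4 on the FDXR sh434 arrays. LUM alone carried this difference, since THY1 had a log2 fold change of -0.06 and DCN of 0.11, and neither passed. The part of these markers in the results was not tested.

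Proteases of these families cut matrix proteins, growth factor precursors, receptors and adhesion molecules at the cell surface, or degrade proteins in lysosomes. MMPs and ADAMs use a zinc ion and are made as inactive proenzymes, and TIMPs block them by binding their active site. In breast tumors many secreted MMPs come mainly from stromal cells, while carcinoma cells make ADAM sheddases, membrane-type MMPs and cathepsins, of which CTSD is a known target of the estrogen receptor.

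Few of these genes differed far between FDXR sh434 and shControl cells. Tested by limma over all 38598 probes with Benjamini-Hochberg adjustment, MMP16 rose and the other 82 members did not pass an adjusted p of 0.05. This is 1.2% of the members, where 0.7% of all probes passed, 0.298% higher and 0.402% lower. No probe on the array with an absolute log2 fold change under 0.80 passed in this fit, and MMP16 was the only member beyond that size. The log2 fold changes of the 83 genes had a median of -0.04, with the middle 50% from -0.18 to 0.07, against a median of 0.00 and a middle 50% from -0.15 to 0.15 for all probes. Probes with a gene symbol had a median of 0.03, with the middle 50% from -0.12 to 0.18. An absolute log2 fold change above 0.5 was seen in 4 members, or 4.82%, and in 6.57% of all probes.

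Dim probes varied more between replicate arrays: the residual SD had a median of 0.162 in the dimmest 9650 probes and of 0.0728 in the brightest. In a limma fit whose prior spread is a function of signal (trend and robust estimation, here called the signal-dependent spread), 7 members passed: MMP16 and ADAM10 were higher, and MMP14, TIMP2, ADAM17, ADAM9 and CTSA were lower. That is 8.43% of the members, and 8.43% of all probes passed in the same fit, 5.02% higher and 3.41% lower. Without either FDXR sh434 array this fit called 0 members, while without either shControl array it called 8. Both FDXR sh434 arrays lay above both shControl arrays in 16 members, or 19.3% (25.6% of all probes), and below them in 24, or 28.9% (23.1% of all probes). At an unadjusted p under 0.05 there were 5 higher and 8 lower members, 6.02% and 9.64%, against 9.44% and 7.82% of all probes. Among the 15715 named probes, to which every member belongs, 0.789% passed in the first fit and 11.1% with the signal-dependent spread. In these named probes 31.3% had both FDXR sh434 arrays above and 22.4% below, and by the unadjusted p 12.3% were higher and 7.48% lower.

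**Figure D1:**
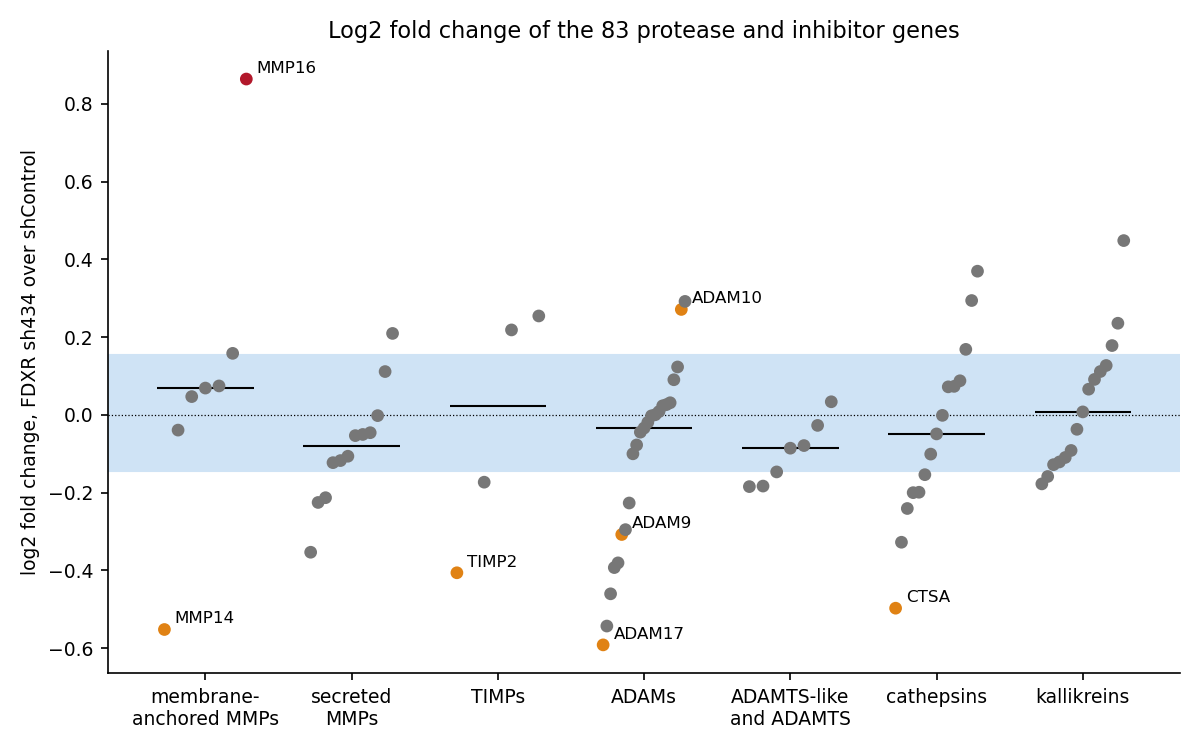
Log2 fold change (FDXR sh434 over shControl) of the 83 members, 1 point a gene, by family; black lines are family medians and the blue band is the middle 50% of all 38598 probes, from -0.15 to 0.15. MMP16 (red) passed limma without a trend over all probes. The named orange genes did not pass there but passed with the signal-dependent spread, and grey genes passed neither of these fits.

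Promoters are shown for those members that passed with the signal-dependent spread and had one available, and they include both directions. The RefSeq promoter table (GRCh38.p14) holds 54 of the 83 genes, among them ADAM17, MMP14 and CTSA, which were lower, and ADAM10, which was higher. It holds none for MMP16, TIMP2 or ADAM9, which also passed, so theirs are not shown. The 250 bases before the start site are printed 5′ to 3′ in the direction of transcription. They lie at chr2:9555831-9556080 on the minus strand for ADAM17, at chr14:22836335-22836584 on the plus strand for MMP14, at chr20:45891085-45891334 on the plus strand for CTSA and at chr15:58749708-58749957 on the minus strand for ADAM10. Capitals mark GC boxes (GGGCGG on either strand) and the E-box CACGTG.
ADAM17: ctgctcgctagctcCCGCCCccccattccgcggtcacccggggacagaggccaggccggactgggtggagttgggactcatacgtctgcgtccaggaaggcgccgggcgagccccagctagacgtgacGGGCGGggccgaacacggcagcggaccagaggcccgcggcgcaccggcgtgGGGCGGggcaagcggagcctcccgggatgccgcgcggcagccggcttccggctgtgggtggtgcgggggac
MMP14: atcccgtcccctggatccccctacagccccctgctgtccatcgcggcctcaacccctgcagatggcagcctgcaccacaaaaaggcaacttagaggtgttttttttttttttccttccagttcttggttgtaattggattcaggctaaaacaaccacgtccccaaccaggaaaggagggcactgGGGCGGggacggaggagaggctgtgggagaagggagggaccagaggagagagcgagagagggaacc
CTSA: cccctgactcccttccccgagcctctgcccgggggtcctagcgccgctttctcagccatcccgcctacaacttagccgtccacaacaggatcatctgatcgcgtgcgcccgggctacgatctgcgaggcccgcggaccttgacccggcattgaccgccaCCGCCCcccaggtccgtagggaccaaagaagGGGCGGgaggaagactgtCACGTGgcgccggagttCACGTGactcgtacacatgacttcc
ADAM10: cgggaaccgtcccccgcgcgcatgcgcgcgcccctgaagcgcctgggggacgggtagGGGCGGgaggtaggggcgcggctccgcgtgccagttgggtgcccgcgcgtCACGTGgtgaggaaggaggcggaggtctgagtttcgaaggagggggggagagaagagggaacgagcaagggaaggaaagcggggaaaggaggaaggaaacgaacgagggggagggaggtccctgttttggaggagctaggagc
All 4 promoters were rich in G and C, from 56.8% for MMP14 to 75.6% for ADAM17. ADAM17 held 3 GC boxes, CTSA 2, and MMP14 and ADAM10 1 each, and 42.6% of all 35116 promoter windows of this length held at least 1, as did 37 of the 63 windows of members (58.7%). CTSA held 2 E-boxes, 42 and 25 bases before the start, and ADAM10 held 1, while 6.34% of all windows and 7 of the 63 windows of members (11.1%) held one. The GC box and the E-box were searched after the values had been seen. AP-1 letters (TGAGTCA on either strand) were in 0 of the 63 windows of members and in 4.2% of all windows. The NF-kappa B motif was in 0 and in 0.322%, and the palindromic estrogen response element in 0 and in 0.0399%. The interferon response motif was in 1 window, that of ADAMTSL1, and in 3.02% of all. A match describes the letters only, and the 4 promoters shown all hold a GC box.

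The membrane-anchored MMPs ranged from -0.55 for MMP14 to 0.86 for MMP16, the member with the highest log2 fold change. MMP16 is a membrane-type MMP (MT3-MMP) that can activate the proenzyme of MMP2. Its log2 signal was 4.36 and 4.31 on the shControl arrays against 5.13 and 5.27 on the FDXR sh434 arrays. All 4 values are separated by group, with both shControl arrays under the median of all probes and both FDXR sh434 arrays above it. MMP16 rose 1.82-fold, a log2 fold change of 0.86 (standard error 0.109, 95% interval 0.59 to 1.14, adjusted p = 0.0496), and its adjusted p was the highest of the 270 that passed. The call was lost with quantile normalization (adjusted p = 0.0521), with array weights (adjusted p = 0.0517), with the replicate number as a block (adjusted p = 0.111) with the methods' t-test (adjusted p = 0.235) and without any 1 array (adjusted p = 0.212 to 0.327). The size changed little, from 0.80 to 0.93 without any 1 array, and with the signal-dependent spread the adjusted p was 0.00543.

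MMP14, or MT1-MMP, which cuts fibrillar collagen at the cell surface and activates the MMP2 proenzyme in a complex with TIMP2, had values of the opposite sign. Its log2 signal was 4.76 and 4.89 on the shControl arrays against 4.25 and 4.29 on the FDXR sh434 arrays. These do not overlap, their mean lies under the median signal of all probes, and the log2 fold change was -0.55 (standard error 0.108, 95% interval -0.82 to -0.28, adjusted p = 0.0953, or 0.0483 with the signal-dependent spread). MMP14 also passed when named probes alone were tested (adjusted p = 0.0427) and with the signal-dependent spread and the replicate block. It passed in no other alternative that tested it, and the filter at the median signal left it out.

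The other membrane-anchored MMPs stayed near the center. For MMP15 (MT2-MMP) the shControl arrays gave 6.20 and 6.25 and the FDXR sh434 arrays 6.40 and 6.37, a log2 fold change of 0.16 (adjusted p = 0.491). MMP25, which is held by a lipid anchor, had a log2 fold change of 0.07 with the probe used and of 0.16 and -0.11 with its other probes. MMP24, a membrane-type MMP expressed in the nervous system, had -0.04 and 0.14 with its 2 probes, and MMP17, another lipid-anchored member, had 0.07. MMP23A, a pseudogene copy of MMP23B, had 0.05, a sign that turned with quantile normalization and without the second FDXR sh434 array, and signals of the copies may not be told apart. In all, 5 of the 7 membrane-anchored MMPs had a positive log2 fold change, as did 19601 of all 38598 probes. Of the 7, 1 rose, or 14.3%, where 0.298% of all probes passed as higher, and 6 did not pass. That share rests on MMP16 alone.

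Of the 12 secreted MMPs measured, 0 passed in either fit and none reached an unadjusted p of 0.05. Of all probes, 0.7% passed without the trend and 8.43% with the signal-dependent spread. By the unadjusted p, 9.44% of all probes were higher and 7.82% lower. Whether the 12 differ from these shares was not tested. Their log2 fold changes ran from -0.35 for MMP8, the neutrophil collagenase, to 0.21 for MMP13, collagenase 3. Most were dim, with 10 of the 12 under the median signal of all probes. This includes all 7 measured genes of the MMP cluster of chromosome 11 (MMP1, MMP8, MMP10, MMP12, MMP13, MMP20 and MMP27), whose log2 signals lay between 2.44 and 4.26. Whether these transcripts were present was not determined.

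MMP11 (stromelysin 3) and MMP28 (epilysin, an MMP of epithelia) were the secreted members above the median signal. MMP11 had 5.47 and 5.58 on the shControl arrays against 5.55 and 5.50 on the FDXR sh434 arrays. With the groups overlapping, the log2 fold change of -0.00 had a 95% interval from -0.27 to 0.27 and changed sign with median centring. MMP28 had 5.34 and 5.17 on the shControl arrays against 5.13 and 4.93 on the FDXR sh434 arrays, a log2 fold change of -0.23 (95% interval -0.55 to 0.10, adjusted p = 0.438), which was -0.13 without the second FDXR sh434 array and -0.14 without the first shControl array.

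The 4 TIMPs split evenly by sign, and for each of them the arrays of the groups did not overlap, as was so for 25.6% of all probes in the higher and 23.1% in the lower direction. TIMP2, which inhibits MMPs and also forms the bridge between MMP14 and the MMP2 proenzyme, had log2 signals of 9.24 and 9.22 on the shControl arrays against 8.79 and 8.85 on the FDXR sh434 arrays. The groups lay about 0.4 apart and the arrays within them less than 0.1 apart. The TIMP2 log2 fold change was -0.41 (standard error 0.102, 95% interval -0.66 to -0.15), with an adjusted p = 0.145 without the trend, 0.00361 with the signal-dependent spread and 0.0305 when probes under the median signal were left out.

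TIMP1, a secreted inhibitor of most MMPs, had 7.55 and 7.64 on the shControl arrays against 7.86 and 7.84 on the FDXR sh434 arrays. Its log2 fold change was 0.25 (95% interval -0.01 to 0.52), which did not pass (adjusted p = 0.301, or 0.0814 with the signal-dependent spread). TIMP3 binds to the matrix and also inhibits ADAM17. Its log2 fold change was -0.17 (95% interval -0.47 to 0.12), on arrays that read 4.54 and 4.45 for shControl and 4.42 and 4.23 for FDXR sh434. TIMP4 had 3.75 and 3.65 on the shControl arrays against 3.94 and 3.89 on the FDXR sh434 arrays, a log2 fold change of 0.22 (95% interval -0.05 to 0.48). The TIMP3 value was -0.08 without the second FDXR sh434 array and -0.27 without the first. Both TIMP3 and TIMP4 lay under the median signal, and neither passed in any fit.

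**Figure D2:**
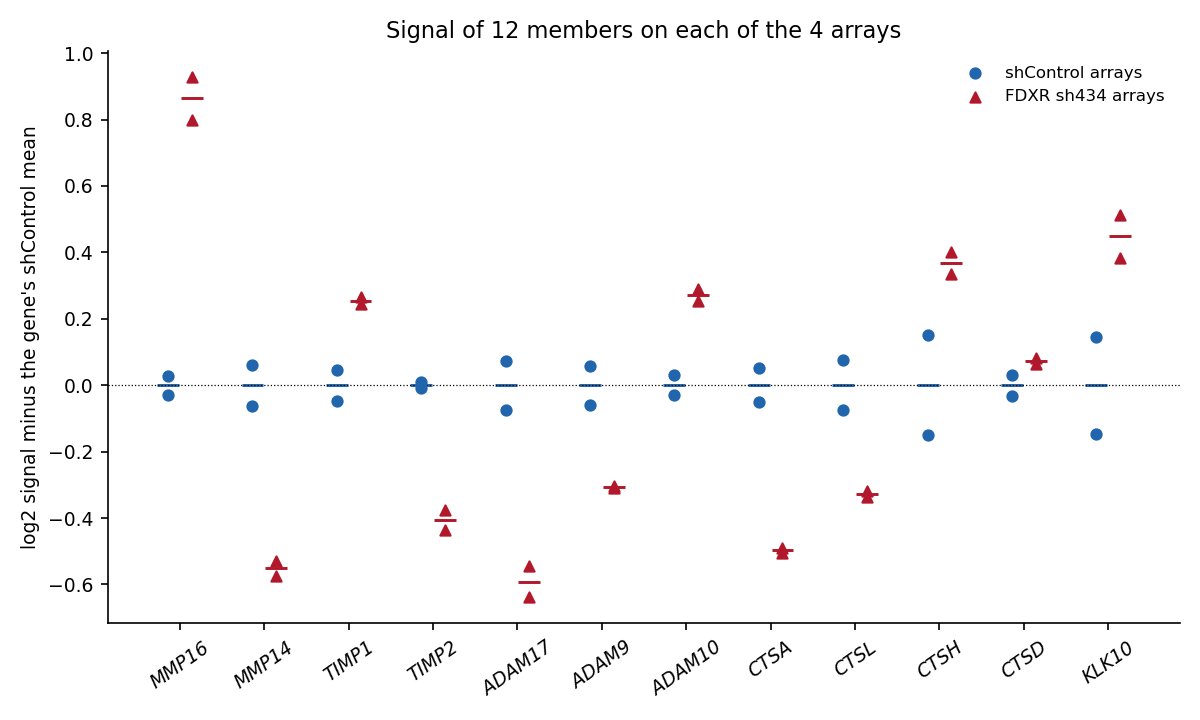
Log2 signal of 12 members on the 4 arrays, after the shControl mean of each gene was subtracted; points are single arrays and short lines the means of 2 arrays. The 12 genes were selected for display and all have no overlap between the groups, so their separation is not a result. Of all members 19.3% were higher and 28.9% lower without overlap, against 25.6% and 23.1% of all probes. The change ranged from -0.59 for ADAM17 to 0.86 for MMP16.

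ADAMs are membrane proteins, and the active ones release the outer parts of other membrane proteins. Among the 23 measured, 14 had a negative and 9 a positive log2 fold change, against 18997 and 19601 of all 38598 probes. Without the trend 0 passed (0.7% of all probes), and 6 had an unadjusted p under 0.05. Of these 2 were higher, 8.7% of the ADAMs (9.44% of all probes), and 4 lower, 17.4% (7.82% of all probes). ADAM17, the sheddase of TNF and of several EGF receptor ligands, had 7.93 and 7.78 on the shControl arrays against 7.31 and 7.22 on the FDXR sh434 arrays. Every shControl value, the lowest included, stayed well above the highest FDXR sh434 array. The log2 fold change of -0.59 is 1.51-fold lower (standard error 0.113, 95% interval -0.88 to -0.31), with an adjusted p = 0.0928, which was 0.00315 with the signal-dependent spread, 0.0164 without the dimmer probes and 0.0412 among named probes.

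ADAM10, the closest relative of ADAM17 and a sheddase of Notch receptors and E-cadherin, had values of the opposite sign. Its log2 signal was 8.76 and 8.70 on the shControl arrays against 9.02 and 8.98 on the FDXR sh434 arrays. These 4 values do not overlap by group. The log2 fold change of ADAM10 was 0.27 (standard error 0.103, 95% interval 0.01 to 0.53, adjusted p = 0.271, or 0.0288 with the signal-dependent spread). ADAM9, a metalloprotease of many epithelial cells, had 10.95 and 10.84 on the shControl arrays and 10.59 on each FDXR sh434 array. Its log2 fold change was -0.31 (95% interval -0.57 to -0.04, adjusted p = 0.237, or 0.00784 with the signal-dependent spread). ADAM15, a metalloprotease of epithelium and endothelium named here after its values were seen, had -0.03 (95% interval -0.32 to 0.25), on overlapping arrays.

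Several other ADAM transcripts had negative values that passed in neither fit. ADAM22 has no protease activity and is a receptor of LGI1 in neurons, and its shControl arrays differed more from each other, at 5.49 and 5.04, than the nearest of them from the FDXR sh434 arrays, both at 4.87. Its log2 fold change of -0.39 (adjusted p = 0.318) was -0.61 without the second shControl array and -0.17 without the first. ADAM20P1, a pseudogene, had 5.99 and 5.92 on the shControl arrays against 5.20 and 5.62 on the FDXR sh434 arrays. Its log2 fold change was -0.54 (adjusted p = 0.197), and -0.33 without the first FDXR sh434 array. With the signal-dependent spread and the replicate block, ADAM20P1 passed (adjusted p = 0.0378). ADAM6, a pseudogene within the immunoglobulin heavy chain locus, had -0.38 (adjusted p = 0.355), which was -0.14 without the second FDXR sh434 array and -0.62 without the first. ADAM21 had -0.46 at a log2 signal near 3 (adjusted p = 0.119), and ADAM8, a metalloprotease of leukocytes and some tumors, had 0.29 (adjusted p = 0.257), both named after their values were seen. ADAM20, ADAM21 and their pseudogenes are close copies, so signals may be shared among them.

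The 7 ADAMTS-named transcripts are 5 ADAMTS-like proteins, which lack the protease domain, the pseudogene ADAMTS7P1 and the antisense transcript ADAMTS9-AS2. Of these 7, 6 had a negative log2 fold change, as did 18997 of all 38598 probes, with a range from -0.18 to 0.03. In either fit 0 passed (0.7% of all probes without the trend and 8.43% with the signal-dependent spread). An unadjusted p under 0.05 was seen in 0, where 9.44% of all probes were higher and 7.82% lower. Whether the 7 differ from these shares was not tested. ADAMTSL2, which binds fibrillin-rich matrix, had 6.11 and 5.96 on the shControl arrays against 5.89 and 5.81 on the FDXR sh434 arrays, a log2 fold change of -0.18 (95% interval -0.46 to 0.10), which was -0.11 without the first shControl array. ADAMTSL5 had -0.08 (95% interval -0.37 to 0.21), which was 0.02 without the first shControl array. The probes of ADAMTS7P1 disagreed in sign, with log2 fold changes of -0.18 and 0.25.

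Cathepsins work mainly in lysosomes and are in part secreted by tumor cells. Of the 15, 9 had a negative and 6 a positive log2 fold change, against 18997 and 19601 of all 38598 probes. Without the trend 0 passed (0.7% of all probes). CTSA, a serine carboxypeptidase that also protects lysosomal beta-galactosidase and neuraminidase, had 9.24 and 9.34 on the shControl arrays against 8.79 and 8.80 on the FDXR sh434 arrays. Both FDXR sh434 arrays were nearly equal and lay below both shControl arrays. Its log2 fold change of -0.50 is 1.41-fold lower (standard error 0.105, 95% interval -0.76 to -0.23), with an adjusted p = 0.109, which was 0.00168 with the signal-dependent spread and 0.0201 without the dimmer probes.

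Cysteine cathepsins had values in both directions. CTSL, an endopeptidase, had 6.20 and 6.35 on the shControl arrays against 5.94 and 5.96 on the FDXR sh434 arrays, a log2 fold change of -0.33 (95% interval -0.60 to -0.05, adjusted p = 0.228, or 0.113 with the signal-dependent spread). CTSV, its nearest paralog, had 0.07, on overlapping arrays. CTSB, an endopeptidase that can also trim dipeptides, had -0.24 (95% interval -0.49 to 0.01) and was named after its values were seen. CTSH, an aminopeptidase, had 4.89 and 4.59 on the shControl arrays against 5.14 and 5.08 on the FDXR sh434 arrays, a log2 fold change of 0.37 (95% interval 0.03 to 0.71, adjusted p = 0.264). CTSO had 7.02 and 6.72 against 7.21 and 7.12, a log2 fold change of 0.29 (95% interval -0.05 to 0.64, adjusted p = 0.358). Without the second shControl array the log2 fold changes were 0.22 for CTSH and 0.14 for CTSO, and without the first 0.52 and 0.45.

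CTSD, the aspartic protease, had 11.91 and 11.97 on the shControl arrays and higher values, the highest 12.02, on both FDXR sh434 arrays. The log2 fold change of 0.07 had a 95% interval from -0.18 to 0.33, so a change larger than that lies outside the interval in either direction. For CTSZ, a carboxypeptidase, it was -0.00 (95% interval -0.27 to 0.26), on overlapping arrays.

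**Figure D3:**
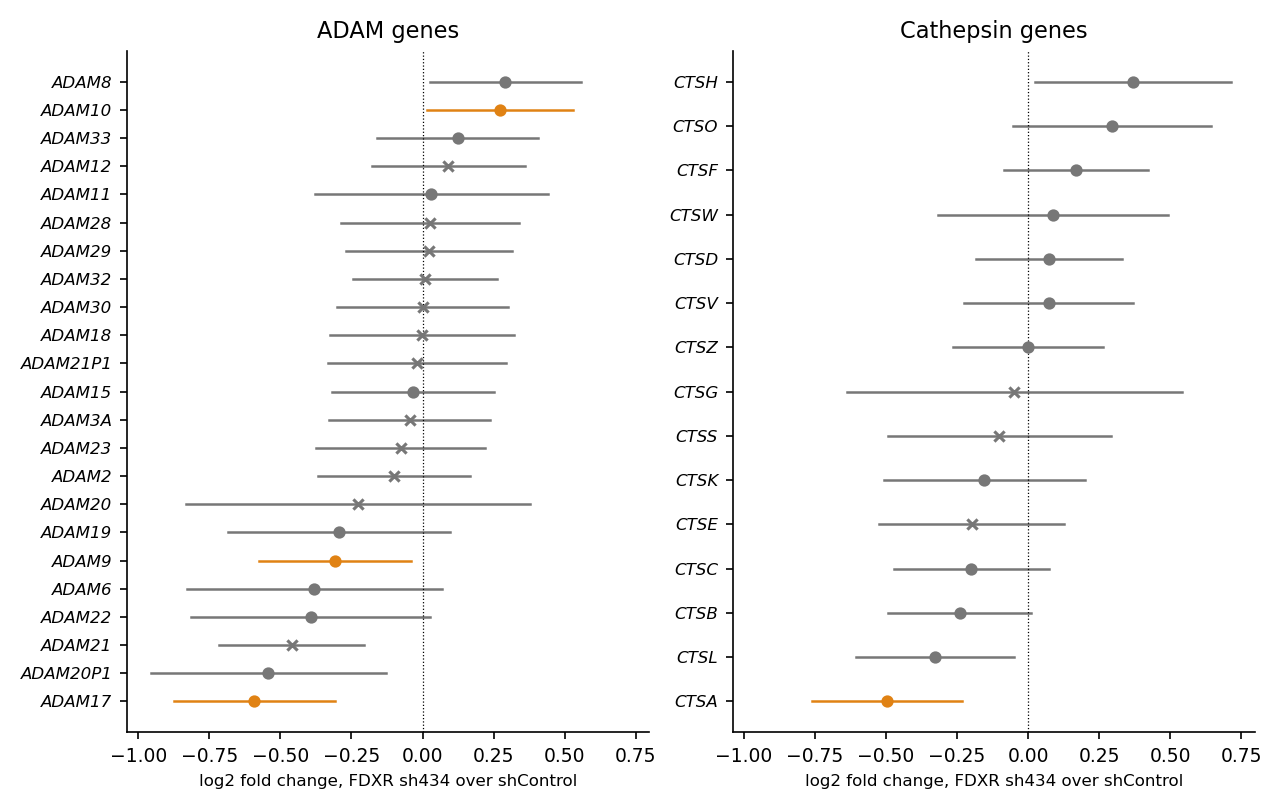
Log2 fold changes with 95% intervals of the 23 ADAM and 15 cathepsin genes, in order of size; crosses are genes under the median signal of all probes. Orange genes (ADAM17, ADAM9, ADAM10 and CTSA) passed limma with the signal-dependent spread and grey genes did not.

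Kallikreins are secreted serine proteases, encoded side by side on chromosome 19, and several respond to steroid hormones. All 15 were measured, and 0 passed in either fit (0.7% of all probes without the trend and 8.43% with the signal-dependent spread). At an unadjusted p under 0.05, 0 were lower (7.82% of all probes) and 1 was higher, 6.67% of the kallikreins (9.44% of all probes). That gene was KLK10, a kallikrein of normal breast epithelium that is often silenced in breast cancer, with 6.53 and 6.24 on the shControl arrays against 6.77 and 6.90 on the FDXR sh434 arrays. For KLK10 the log2 fold change was 0.45 (standard error 0.139, 95% interval 0.10 to 0.80, adjusted p = 0.204, or 0.0511 with the signal-dependent spread). It was 0.59 without the first shControl array and 0.30 without the second.

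In chromosomal order KLK10 is followed by KLK11 and KLK12, and in these 3 neighbors alone among the 15 both FDXR sh434 arrays lay above both shControl arrays. KLK11 had 5.76 and 5.64 on the shControl arrays against 5.87 and 5.89 on the FDXR sh434 arrays, a log2 fold change of 0.18 (95% interval -0.09 to 0.45). KLK12 had 4.18 and 4.16 against 4.38 and 4.43, a log2 fold change of 0.24 (95% interval -0.02 to 0.49), at a signal under the median of all probes. These 3 are 20.0% of the kallikreins, where 25.6% of all probes had both FDXR sh434 arrays above. The run of 3 was noticed after the values were seen, and none of the 3 passed in either fit. With the signal-dependent spread and the replicate block, KLK10 passed (adjusted p = 0.0383). The other 12 kallikreins had log2 fold changes from -0.18 for KLK2 to 0.13 for KLK4. KLK2, whose sequence is close to that of KLK3 (prostate-specific antigen), and KLK8, a kallikrein of brain and skin, had lower values on both FDXR sh434 arrays. They are 13.3% of the kallikreins, where 23.1% of all probes had both FDXR sh434 arrays below. The KLK2 value was -0.10 without the second FDXR sh434 array. For KLK8 the nearest arrays of the groups were equal to 2 decimals, at 5.88, and its log2 fold change of -0.13 was -0.00 without the second shControl array.

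**Figure D4:**
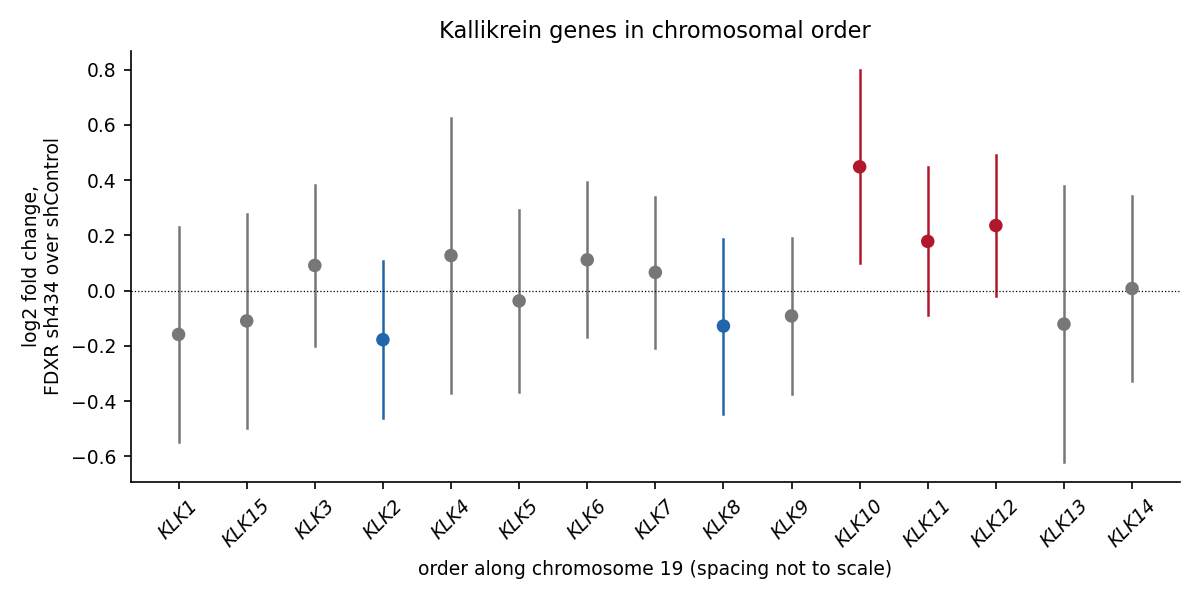
Log2 fold changes with 95% intervals of the 15 kallikrein genes in their order along chromosome 19. Red genes (KLK10, KLK11 and KLK12) have both FDXR sh434 arrays above both shControl arrays, blue genes (KLK2 and KLK8) have them below, and grey genes overlap.

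Genes that act on or with these proteases were taken from a list of 62, of which 39 have a named probe. In limma 0 of the 39 passed, where 2 higher and 4 lower genes had an unadjusted p below 0.05, 5.13% and 10.3% of the list against 9.44% and 7.82% of all probes. With the signal-dependent spread 1 was higher and 3 were lower. These 4 are 10.3% of the 39, where 8.43% of all probes and 11.1% of named probes passed. The list had a median log2 fold change of -0.04, the same as that of the members to 2 decimals.

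Basigin (BSG), a surface glycoprotein known to induce MMPs in neighboring cells, had 10.45 and 10.63 on the shControl arrays against 10.12 and 10.13 on the FDXR sh434 arrays. Its log2 fold change was -0.41 (95% interval -0.70 to -0.13, adjusted p = 0.17, or 0.00473 with the signal-dependent spread). ST14 (matriptase), an epithelial membrane protease, had a log2 fold change of 0.10 (95% interval -0.17 to 0.38, adjusted p = 0.684).

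The other 3 genes of the list that passed with the signal-dependent spread were named after their values were seen. PCSK7, a proprotein convertase of the secretory pathway, had 7.03 and 6.99 on the shControl arrays against 7.62 and 7.61 on the FDXR sh434 arrays. Arrays within each group were nearly equal, and the log2 fold change was 0.60 (95% interval 0.35 to 0.86, adjusted p = 0.0756). HTRA1, a secreted serine protease, had 5.63 and 5.32 on the shControl arrays and at most 4.89 on the FDXR sh434 arrays, a log2 fold change of -0.63 (adjusted p = 0.12). LGMN, or legumain, which processes cathepsins in lysosomes, had -0.35 (adjusted p = 0.197). RECK, a lipid-anchored inhibitor of MMPs, had 0.56 at a log2 signal near 4 and passed in neither fit (adjusted p = 0.129, or 0.0808 with the signal-dependent spread).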

How the data were processed

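RNA from T47D cells with shControl or FDXR sh434 was hybridised to Affymetrix arrays, 2 per group. The authors deposited log2 signals of 38598 probes. Summarisation and normalization are not given in the sources used here. Limma 3.50.3 is listed in the submitters' processing notes. Background signal is unknown without scanner values, and 4 arrays limit the precision. The array annotation names 15715 probes with 1 symbol, none with several, and 22883 have none; the 83 member genes have 87 probes.

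On the deposited values, limma 3.58.1 (R 4.3.3; lmFit, eBayes) was fitted with condition as the only term and no filter. Two-sided p-values were adjusted by Benjamini-Hochberg over the whole table, with a threshold of 0.05. Intervals are 95%, from the moderated standard error on 5.45 degrees of freedom. An exact permutation test of 2 arrays against 2 cannot give a two-sided p under 0.333, so none was used. Alternatives were the signal-dependent spread (intensity trend, robust), replicate block, quantile normalization, median centring, a filter at the median signal, named probes only, array weights, the methods' t-test, other probes, and each array left out. Leaving out arrays or blocking with the trend was added after seeing the data.

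Members, lists and rules were chosen with earlier results of these data known. Genes described are those past the threshold, per family up to 4 with the largest change among genes without overlap whose brighter group reaches the median signal, the 2 with the highest signal, and all TIMPs. Of the network list, those past the threshold (at most 6) and the 2 with the highest signal were taken, and any other gene named was chosen after its values were seen. The fits were also run on simulated arrays with independent noise whose spread followed the intensity trend, and with changes only in probes at or above the median signal. The outcome is not reported here, and it does not bear on dim members. Python 3.11.15, pandas 2.3.3, scipy 1.17.1, statmod 1.5.0 and matplotlib 3.10.9 were used.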

Additional observations from a re-analysis of the deposited data

How the results depend on the processing

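Of the 83 members, the count that passed was 1, and it was 1 with median centring and with every named probe counted. It was 7 with the signal-dependent spread, 4 without probes under the median signal (47 members tested) and 3 with named probes only, and 0 with array weights, quantile normalization, the replicate block and the methods' t-test. Without any 1 array it was 0 to 0, with 7 to 14 members at an unadjusted p under 0.05; with the intensity trend it was 0 without either FDXR sh434 array, 8 without either shControl array, and 9 with the replicate block. For the 39 network genes, where 0 had passed, the count was 4 with the signal-dependent spread and 4 with the trend and the replicate block. It was 3 without the dimmer probes, where only 20 of the network genes were tested, and 1 with named probes only. Over all 38598 probes, the count of 270 became 3255 with the signal-dependent spread and 3725 with the trend and the block. It was 2541 of 19299 without the dimmer probes (1546 higher and 995 lower), where 4 of 47 members passed. With named probes only it was 687 of 15715 (390 higher and 297 lower), where 3 of 83 members passed. With the replicate block it was 0 (6268 at an unadjusted p under 0.05). The count was also 0 with the methods' t-test (5368 at an unadjusted p under 0.05). Without any 1 array it was 0 to 0, and with the trend 641 and 711 without the first or second FDXR sh434 array and 3915 and 3814 without the first or second shControl array. Where an array was left out, the lone array of its group was assumed to vary like the others. Nothing states what same-numbered arrays share. Their deviations from the group means correlated at 0.00 across probes, which cannot show whether some genes share a batch. The block removed a degree of freedom. Signs turned for MMP11, whose log2 fold change was 0.0044 with median centring and -0.0568 to 0.0528 without any 1 array (0.0219 without the second FDXR sh434 array). They also turned for MMP23A, at -0.0128 with quantile normalization and -0.0603 to 0.154 without any 1 array, for ADAMTSL5, at -0.174 to 0.0158 without any 1 array, and for ADAMTS7P1, at 0.25 with its second probe. All these had passed in no fit. The cause was not tested. Of the values of single genes recomputed, 467 kept their sign and side of the threshold, 38 passed only in the alternative, 10 passed no longer and 11 turned sign.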
